A study of Mus musculus with 72 samples.

Results

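Retinoic acid (RA) was compared between 2 mouse leukaemias that differ in the fusion protein they carry, PML/RARA or PLZF/RARA, by gene expression in 36 of the 72 arrays of the study. The 36 are all the arrays whose model is labelled transgenics, and each gene was described by 1 quantity, its RA effect (treated minus untreated, log2) with PML/RARA minus its RA effect with PLZF/RARA, averaged over 6 h and 12 h. A positive difference means a larger rise or a smaller fall with PML/RARA. The RNA on all 36 arrays is total RNA of leukaemic bone marrow, and the background of the mice is labelled wild type. Treatment is labelled none or retinoic acid, and the untreated mice have a 6 h and a 12 h group of their own. With PML/RARA there were 4 untreated and 8 RA arrays at each time, and with PLZF/RARA 2 untreated and 4 RA arrays at each time. The 4 PML/RARA arrays of batch 2 (2 untreated, 2 RA) were all at 6 h, and the other 32 arrays were batch 1. No label used here states the dose or route of RA, the promoter behind each transgene or the age of the mice. Nor does one say if the arrays within a group stem from different mice or leukaemias. The p-values therefore measure the spread between these arrays, and their number limits the precision. The other 36 arrays of the study have viral transduction of PML/RARA as their model. Of these, 18 have a Pml wild type and the rest a Pml null background. Both kinds enter every fit with all 72 arrays.

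Both fusions join a partner protein to the retinoic acid receptor alpha (RARA), a nuclear receptor that binds DNA with retinoid X receptors and switches from corepressors to coactivators when RA binds. Acute promyelocytic leukaemia with PML/RARA is known for its response to RA, in which cells differentiate toward neutrophils and the fusion protein is degraded. The form with PLZF/RARA is known for a poor clinical response, and its PLZF part, encoded by ZBTB16, binds corepressors of its own. Direct RA targets carry response elements, in which 2 half-sites lie in the same orientation, spaced by 5 bases (DR5), 2 bases (DR2) or 1 base (DR1).

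Across 19938 genes the difference was called (Benjamini-Hochberg adjusted p below 0.05, limma) for 1480, or 7.42%. It was positive for 668 (3.35%) and negative for 812 (4.07%). At least 1.5-fold was reached by 556 of the calls, 301 positive and 255 negative. Of the 2 sides of the difference, the RA effect with PML/RARA was called as a rise for 11.8% of genes and as a fall for 15.6%. With PLZF/RARA these shares were 3.76% and 2.34%, from 1215 genes, or 687 and 740 without untreated 6 h replicate 1 or 12 h replicate 2. The median standard error (SE) was 0.07 for the PML/RARA effect and 0.09 for the PLZF/RARA effect, which rests on fewer arrays, so the counts of the 2 sides cannot be read as sizes of response. The 2 effects and the difference share their arrays, and their values are given side by side. The genes that define promyelocytes were high on every array: the mean log2 level of 11 primary granule and promyelocyte genes ran from 11.27 to 12.01. Without single PLZF/RARA untreated arrays the count of 1480 fell to 875 and 889 (6 h, replicates 1 and 2) and to 766 (12 h, replicate 2). Within batch 1 it was 1012, of which 476 were positive.

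**Figure D1:**
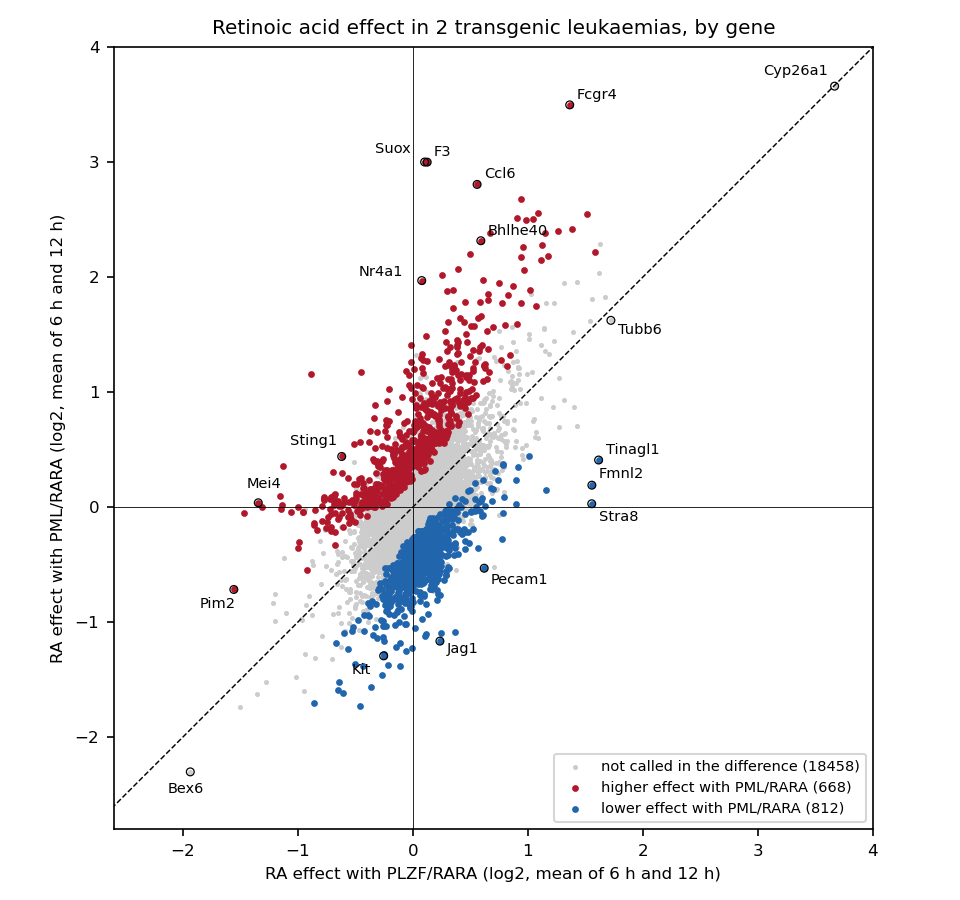
Each point is a gene, with its RA effect with PLZF/RARA on the x axis and with PML/RARA on the y axis (log2, mean of 6 h and 12 h); the dashed line marks equal effects. Cyp26a1 lies on the line at 3.66 and 3.67, F3 and Suox far above it, and Stra8, Fmnl2 and Tinagl1 far below it.

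The first question is whether RA reached its direct targets in both leukaemias. Cyp26a1, which encodes the enzyme that breaks RA down, and Rarb, an RA receptor gene with a classical response element, have a DR5 match in the promoter windows of RefSeq (build GRCm38.p6, 250 bases before to 50 bases after an annotated start). They were the 2 genes of a fixed panel of key genes with a match. Tinagl1, with a DR2 match, was the 1 gene with a match among the named largest differences. Cyp26a1 and Rarb responded alike by their means, and Tinagl1 did not. The bases below run 5′ to 3′ on the gene's strand and end before the annotated start. Capitals mark the match. The Cyp26a1 stretch is chr19:37697716-37697807 on the plus strand, with the match 15 bases before the start. The Rarb stretch is chr14:16575477-16575589 on the minus strand, 36 bases before the start, and the Tinagl1 stretch is chr4:130175156-130175289 on the minus strand, 93 bases before the start.
Cyp26a1: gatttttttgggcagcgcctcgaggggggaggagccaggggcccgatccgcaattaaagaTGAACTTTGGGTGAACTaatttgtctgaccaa
Rarb: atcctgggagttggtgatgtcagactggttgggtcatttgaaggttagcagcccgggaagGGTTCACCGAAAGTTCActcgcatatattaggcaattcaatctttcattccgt
Tinagl1: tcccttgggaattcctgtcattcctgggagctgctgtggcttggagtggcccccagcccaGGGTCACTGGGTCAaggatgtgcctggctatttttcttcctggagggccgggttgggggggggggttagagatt

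Cyp26a1 rose in both leukaemias by the same mean. With PML/RARA its untreated log2 levels were 5.29, 4.84, 5.05 and 5.12 at 6 h, and its 8 RA arrays ran from 6.12 over a median of 8.89 to 9.44. With PLZF/RARA the untreated arrays read 5.15 and 5.40 and the RA arrays 8.90, 8.31, 8.36 and 8.97. No RA array of either fusion overlapped its untreated arrays, and 2 of the 8 PML/RARA arrays (replicates 3 and 4, 6.48 and 6.12) lay far below the rest. At 12 h the PML/RARA arrays rose from 5.32 to 5.73 untreated to between 7.54 and 10.57, with a median of 9.70. The PLZF/RARA arrays were at 5.29 and 5.05 untreated and 8.76, 9.94, 8.06 and 9.80 with RA. The effect was 3.66 ± 0.38 (SE) with PML/RARA and 3.67 ± 0.53 with PLZF/RARA, a difference of -0.01 ± 0.65. Its 95% interval, -1.32 to 1.31, still allows a difference of more than 2-fold either way. Rarb had the narrower interval: effects of 0.37 ± 0.06 and 0.42 ± 0.09, a difference of -0.05 ± 0.11 and an interval of -0.27 to 0.17.

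Among other genes that rose with RA, the difference was called for some and not for others. Dhrs3, a retinaldehyde reductase, rose by 2.28 ± 0.14 with PML/RARA and by 1.63 ± 0.19 with PLZF/RARA, and the difference of 0.65 ± 0.23 missed the threshold (adjusted p = 0.083; 0.023 to 0.365 over the alternatives). Rarg, the gamma receptor, was at 7.57 to 7.64 on untreated PML/RARA arrays at 6 h, and at 8.70 to 9.76 (median 9.11) with RA. With PLZF/RARA it was at 8.15 and 8.22 untreated and 8.67, 8.50, 8.57 and 8.62 with RA. The PLZF/RARA arrays thus began above the untreated PML/RARA arrays and ended below the treated ones. The difference for Rarg was 0.95 ± 0.17 (adjusted p = 0.00025). Bhlhe40, a transcriptional repressor, had 2.32 ± 0.15 against 0.59 ± 0.20 (difference 1.72 ± 0.25, adjusted p = 1.9e-05). For Hic1, a tumour suppressor gene, the values were 2.50 ± 0.25 and 0.98 ± 0.35 (difference 1.52 ± 0.43, adjusted p = 0.024), and the call was lost within batch 1 and without any of 3 untreated PLZF/RARA arrays (6 h replicates 1 and 2, 12 h replicate 1).

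Stra8, named for its stimulation by RA and known as the trigger of meiosis in germ cells, responded with PLZF/RARA and not detectably with PML/RARA. On PLZF/RARA arrays it went from 4.52 and 4.48 to 5.84, 5.75, 5.14 and 6.52 at 6 h, and from 4.61 and 4.55 to 6.04, 7.44, 5.71 and 6.30 at 12 h. The 8 untreated PML/RARA arrays lay between 4.18 and 4.60 and the 16 treated ones between 4.11 and 4.54. The treated and untreated arrays overlapped with PML/RARA and were separate with PLZF/RARA at both times. The effect was 0.03 ± 0.13 with PML/RARA and 1.55 ± 0.19 with PLZF/RARA, and the difference of -1.53 ± 0.23 (adjusted p = 3.2e-05) was the largest negative one of the named genes. Tinagl1, which encodes a matrix protein, rose in both leukaemias, by 0.41 ± 0.10 and 1.61 ± 0.14. Its PLZF/RARA arrays went from 7.38 and 7.50 to 9.06, 9.28, 8.83 and 9.74 at 6 h, while the 8 treated PML/RARA arrays stayed between 7.62 and 7.98. No treated PML/RARA array reached the lowest treated PLZF/RARA array. The difference was -1.21 ± 0.17 (adjusted p = 1.7e-05). Of 17 measured retinoic acid targets in the list, 4 had a positive and 2 a negative called difference, or 35.3%, against 7.42% of all genes. The list's median difference was 0.04 against 0.00 over all genes. The negative pair was Stra8 and Tgif1, a corepressor gene whose call was lost with all 72 arrays and without any of 5 single arrays (adjusted p up to 0.243): untreated PML/RARA 6 h replicate 3, untreated PLZF/RARA 6 h replicates 1 and 2 and 12 h replicate 2, and PLZF/RARA RA 6 h replicate 1. RA raised 10 of the 17 and lowered 1 with PML/RARA, and raised 6 and lowered 1 with PLZF/RARA. Median effects of the 17 were 0.25 with PML/RARA and 0.38 with PLZF/RARA.

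**Figure D2:**
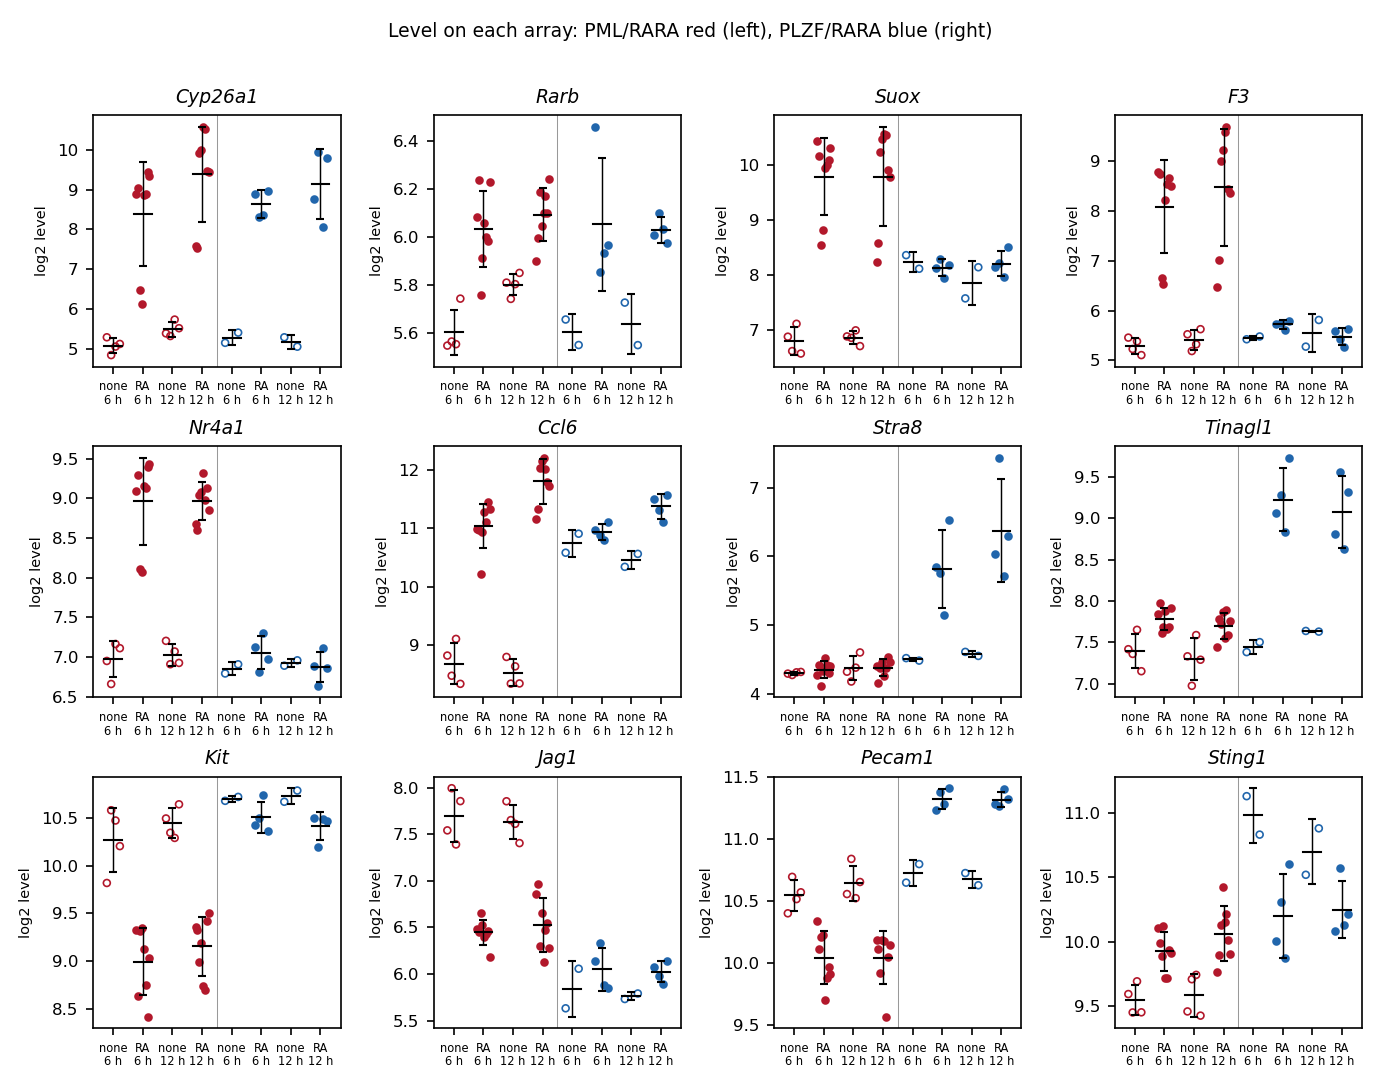
Log2 level of 12 genes on each of the 36 arrays, by fusion (PML/RARA red, PLZF/RARA blue), treatment (open untreated, filled RA) and time; bars show the group mean and SD, and each panel has its own y axis. Cyp26a1 rose in both leukaemias, F3 and Nr4a1 separated RA from untreated arrays only on the red side at both times, and Stra8 only on the blue side.

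The genes of the fusion partners were also compared, with the reservation that whether their probe sets also read transgene RNA was not tested. Pml, the scaffold of nuclear bodies, was at 9.49 to 9.80 on the 8 untreated PML/RARA arrays and at 10.60 to 11.06 on the 16 treated ones. With PLZF/RARA the 6 h arrays went from 10.00 and 10.03 to 10.18, 10.46, 9.96 and 10.66, and the 12 h arrays from 9.70 and 10.08 to 9.98, 10.25, 10.15 and 10.69. The groups were separate with PML/RARA and overlapped with PLZF/RARA. The effects were 1.18 ± 0.08 and 0.34 ± 0.11 (adjusted p = 0.06 for the second), and the difference was 0.84 ± 0.14 (adjusted p = 0.00011). Rara rose slightly with PML/RARA (0.21 ± 0.07) and fell with PLZF/RARA (-0.44 ± 0.09), a difference of 0.65 ± 0.11 (adjusted p = 0.00024). Untreated Rara was higher with PLZF/RARA, with 9.32 and 9.31 at 6 h against 7.73 to 8.05 with PML/RARA. For Zbtb16 the difference was -0.62 ± 0.18 (adjusted p = 0.027), a call that was lost within batch 1, with time as an additive term, with all 72 arrays in 1 fit and without any of 4 PLZF/RARA arrays (none 6 h replicates 1 and 2, RA 6 h replicate 1, none 12 h replicate 2). Of 16 measured nuclear body and fusion partner genes, these 3 were the ones with a called difference (18.75%, against 7.42% of all genes). Sp100, another body component, rose with both fusions (0.31 and 0.33).

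The largest positive differences were those of F3 and Suox. F3, which encodes tissue factor, the starter of the extrinsic clotting cascade, was at 5.46, 5.23, 5.38 and 5.11 on the untreated PML/RARA arrays at 6 h and between 6.55 and 8.79 with RA (median 8.53). At 12 h it went from between 5.19 and 5.63 to between 6.47 and 9.69 (median 8.73). With PLZF/RARA the 12 arrays stayed between 5.28 and 5.81 whatever the treatment. The treated PML/RARA arrays lay above all PLZF/RARA arrays. The effect was 3.00 ± 0.30, or 8-fold, with PML/RARA and 0.10 ± 0.42 with PLZF/RARA. Suox, the mitochondrial sulfite oxidase gene, had effects of 3.00 ± 0.24 and 0.12 ± 0.33, and the difference of 2.87 ± 0.40 was 7.33-fold. On the untreated arrays Suox was higher with PLZF/RARA (8.36 and 8.11 at 6 h) than with PML/RARA (6.58 to 7.12), and the treated PML/RARA arrays (8.54 to 10.43 at 6 h) passed both. The same 4 treated PML/RARA arrays were the lowest of their group for Cyp26a1, Suox and F3: replicates 3 and 4 at 6 h and replicates 1 and 2 at 12 h. Nr4a1, an orphan nuclear receptor gene, went from 6.66 to 7.17 untreated to 8.08 to 9.44 at 6 h with PML/RARA. In PLZF/RARA leukaemias it was at 6.79 and 6.91 untreated and at 7.13, 6.81, 7.30 and 6.98 with RA. Its effects were 1.97 ± 0.13 and 0.08 ± 0.19, and the difference 1.89 ± 0.23 (adjusted p = 2e-06).

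Genes of coagulation and fibrinolysis are known for their part in the bleeding of patients with this leukaemia. Of 15 measured, 5 had a positive and 1 a negative called difference (40%, against 7.42% of all genes), and the median difference was 0.28. The positive ones besides F3 were Plaur (1.04 ± 0.13), the urokinase receptor, Plau (0.80), its ligand, Thbd (0.61 ± 0.13), the thrombin receptor of anticoagulation, and Procr (0.31), the protein C receptor. With all 72 arrays in 1 fit the list had 3 positive calls, with Plau (adjusted p up to 0.163) and Procr among the losses. The Procr call was also lost within batch 1 and without any of 6 single arrays (untreated PML/RARA 6 h replicate 4 and 12 h replicate 2, untreated PLZF/RARA 6 h replicates 1 and 2 and 12 h replicate 2, PLZF/RARA RA 12 h replicate 3). Plaur rose with PML/RARA (0.66 ± 0.08) and fell with PLZF/RARA (-0.37 ± 0.11). F13a1, the clot-stabilising factor XIII subunit, fell with PML/RARA (-1.37 ± 0.17), with a difference of -1.15 ± 0.29. Its call was lost without PLZF/RARA untreated 12 h replicate 2 (adjusted p up to 0.095 over the alternatives). Untreated F13a1 differed far more than its response did, being higher with PML/RARA by 4.14.

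Several genes of phagocyte function had positive differences. Of the 6 measured subunits of the NADPH oxidase, the enzyme of the oxidative burst, 4 had a positive called difference and none a negative one. The called share was 66.7%, against 7.42% of all genes, and the median was 0.58. Ncf1, a cytosolic subunit, was at 9.93 to 10.53 on the untreated PML/RARA arrays at 6 h and at 12.11 to 12.83 with RA (median 12.70). With PLZF/RARA it was at 10.46 and 10.73 untreated and at 10.73, 11.74, 10.49 and 11.63 with RA at 6 h, and at 11.51, 12.00, 11.56 and 11.92 at 12 h. The 6 h PLZF/RARA arrays overlapped their controls, and the 12 h ones did not. Ncf1 rose by 2.55 ± 0.12 and 1.09 ± 0.17, Ncf4 by 1.58 ± 0.09 and 0.80 ± 0.13. Rac2 and Cybb passed as rises with PML/RARA alone (0.69 and 0.93, against 0.14 and 0.32), and Cyba rose with both (0.54 and 0.29) with no called difference. The Cybb difference was lost with all 72 arrays (adjusted p = 0.165).

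Among 17 Fc and phagocytic receptors, 5 called differences were positive and 1 was negative, or 35.3%, against 7.42% of all genes. Fcgr4, an activating IgG receptor, went from 6.43 to 7.76 untreated to 9.30 to 10.42 with PML/RARA at 6 h. On PLZF/RARA arrays it went from 6.42 and 6.71 to 7.67, 7.61, 7.37 and 7.94. The groups were separate in both leukaemias, and the lowest treated PML/RARA array lay above the highest treated PLZF/RARA array. The effects of 3.50 ± 0.15 and 1.36 ± 0.20 gave a difference of 2.13 ± 0.25 (adjusted p = 1.1e-06). C5ar1, the C5a receptor, had effects of 1.49 ± 0.12 and 0.11 ± 0.17, Itgb2, the common beta 2 integrin, 1.78 ± 0.09 and 0.94 ± 0.12, and Cd14, the lipopolysaccharide co-receptor, 1.19 ± 0.12 and 0.37 ± 0.16. Clec7a, a receptor for fungal glucans, was the negative one (0.34 and 0.91), lost within batch 1, with all 72 arrays and without any of 8 single arrays (untreated PML/RARA 12 h replicate 2, untreated PLZF/RARA 6 h replicates 1 and 2 and 12 h replicate 2, and PLZF/RARA RA replicates 1 and 3 at both times). Fcgr3, the low-affinity IgG receptor, rose by 2.03 ± 0.09 and 1.62 ± 0.13, and its difference of 0.42 ± 0.16 missed the threshold (adjusted p = 0.11).

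Chemokines and their receptors had 6 positive and no negative calls among 20 measured (30%, against 7.42% of all genes). The list's median difference was 0.05. The 6 were Ccl6, Ccl9, Ccrl2, C5ar1, Ltb4r1 and Cxcr2. Ccl6, a chemokine of myeloid cells, had the third largest positive difference, 2.25 ± 0.22 (adjusted p = 4e-08). With PML/RARA it was at 8.33 to 9.10 untreated at 6 h and at 10.22 to 11.45 with RA. In PLZF/RARA leukaemias it was at 10.58 and 10.91 untreated and at 10.97, 10.88, 10.79 and 11.11 with RA. The treated levels of the 2 leukaemias overlapped, and the untreated ones did not. The difference for Cxcr2, a neutrophil chemokine receptor (0.91 ± 0.27, adjusted p = 0.035), was lost without any of 11 single arrays (5 untreated PML/RARA, 4 untreated and 2 RA-treated PLZF/RARA), with all 72 arrays and with a trended robust variance. Padi4, which citrullinates histones in neutrophils, had 2.51 ± 0.15 and 0.91 ± 0.21. The list of secondary granule and mature neutrophil genes, which holds Padi4 and Cxcr2, had 2 positive and 1 negative calls among 26 (11.5%, against 7.42% of all genes). Csf3r, the G-CSF receptor, was the negative one, falling by 0.84 ± 0.08 with PML/RARA (effect with PLZF/RARA -0.21 ± 0.11). The list's median RA effect was 0.27 with PML/RARA and 0.28 with PLZF/RARA, while 12 of the 26 rose with PML/RARA and 5 with PLZF/RARA. Its mean log2 level with PLZF/RARA was 10.62 to 10.94 untreated and 10.51 to 10.91 with RA at 6 h, and 10.06 to 10.57 and 10.82 to 11.10 at 12 h. With PML/RARA it was 10.68 to 10.89 and 10.80 to 11.37 at 6 h, and 10.63 to 10.75 and 10.94 to 11.39 at 12 h.

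The transcription factors of granulocyte differentiation had 3 positive and 1 negative calls among 20, or 20%, against 7.42% of all genes. Cebpe, which drives late neutrophil genes, rose with both fusions, by 1.53 ± 0.07 and 0.65 ± 0.10, and the difference was 0.89 ± 0.12 (adjusted p = 6.7e-06). Its treated levels overlapped between the fusions, 11.71 to 12.04 with PML/RARA and 11.51, 11.88, 11.47 and 11.93 with PLZF/RARA at 6 h, and its untreated levels did not, with 9.95 to 10.41 and 11.24 on both PLZF/RARA arrays. Spi1, the myeloid master regulator PU.1, rose by 0.75 and 0.32, and its difference was lost without untreated PLZF/RARA 12 h replicate 2 (adjusted p up to 0.0926). Cebpa rose by 1.21 ± 0.08 and 0.92 ± 0.11, and its difference of 0.29 ± 0.13 missed the threshold (adjusted p = 0.21). Vdr, the vitamin D receptor, ran the other way. It rose with PLZF/RARA, from 6.47 and 6.82 to 8.20, 7.68, 8.09 and 7.59 at 6 h and from 6.75 and 6.85 to 7.57, 7.37, 7.08 and 7.36 at 12 h. With PML/RARA its arrays ran from 6.13 to 6.75 untreated and from 6.05 to 6.92 with RA, and overlapped. The difference was -0.87 ± 0.16 (adjusted p = 0.00058), and the call was lost when all 72 arrays entered 1 fit.

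Most genes of DNA replication fell with PML/RARA, and none was called with PLZF/RARA. Of 24 DNA replication genes, 17 had a negative called difference and none a positive one, with a median of -0.58. The called share was 70.8%, against 7.42% of all genes. RA lowered 23 of the 24 with PML/RARA, and with PLZF/RARA the median effect was 0.05. The mean log2 level of the list fell on PML/RARA arrays from 10.17 to 10.20 untreated to 9.72 to 9.98 at 6 h, and from 10.10 to 10.27 to 9.19 to 9.91 at 12 h. With PLZF/RARA it was at 9.70 to 9.72 untreated and 9.65 to 10.08 with RA at 6 h, and at 9.77 to 9.86 and 9.56 to 9.87 at 12 h. The PML/RARA groups did not overlap at either time and the PLZF/RARA groups did, and untreated PML/RARA arrays had the highest levels. Gins1, part of the replicative helicase, had the largest difference of the list (-0.98), from effects of -0.76 and 0.22, followed by the clamp loader subunit Rfc3 (-0.80), whose call was lost within batch 1 and without any of 3 untreated PLZF/RARA arrays (6 h replicates 1 and 2, 12 h replicate 2). Mcm10, which activates the helicase, was at 9.46 to 9.57 on untreated PML/RARA arrays at 6 h and at 9.07 to 9.38 with RA, against 8.65 and 8.61 untreated and 9.36, 8.80, 9.15 and 8.81 with RA with PLZF/RARA. Its difference was -0.75 ± 0.14 (adjusted p = 0.00062). Leaving out single arrays gave 14 to 22 negative calls in this list, and batch 1 alone gave 16.

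Myc targets and ribosome biogenesis genes behaved likewise, with 10 negative and no positive calls among 24 and a median of -0.40. Their called share was 41.7%, against 7.42% of all genes. With PML/RARA 23 of the 24 fell, and with PLZF/RARA 1 did, Rrp9. Rpp25, a subunit of the RNase P family, had -1.27 ± 0.29, Rrs1, a ribosome assembly factor, -0.77 ± 0.17 (lost with all 72 arrays, adjusted p = 0.0699), and Dkc1, the pseudouridine synthase dyskerin, -0.62 ± 0.14. Myc itself fell with PML/RARA (-0.57 ± 0.07), with an effect of -0.16 ± 0.10 with PLZF/RARA. Its difference of -0.42 ± 0.12 (adjusted p = 0.028) was lost within batch 1, with all 72 arrays in 1 fit and without any of 4 PLZF/RARA arrays (none 6 h replicates 1 and 2, none 12 h replicate 1, RA 12 h replicate 3). The list had 2 negative calls when all 72 arrays entered 1 fit. Mitosis genes had 4 negative and no positive calls among 24, or 16.7%, against 7.42% of all genes. The 4 were Ndc80, Ttk, Kif11 and Top2a, and the median of the list was -0.23. The count of negative mitosis calls was 1 within batch 1, after median centring and with time as an additive term. It was 0 to 7 when single arrays were left out, with 0 without PLZF/RARA untreated 12 h replicate 2. Single calls were lost without 26 (Ttk), 12 (Kif11), 7 (Top2a) and 1 (Ndc80) of the arrays left out in turn. Dnmt1 and Dnmt3b, DNA methyltransferase genes, and Hdac2, a histone deacetylase gene, were the called members of 19 corepressor and coactivator genes, with differences of -0.41 ± 0.09, -0.43 ± 0.08 and -0.51 ± 0.14. Their share of that list was 15.8%, against 7.42% of all genes. The Hdac2 call was lost without untreated PLZF/RARA 6 h replicate 2 or 12 h replicate 2 (adjusted p up to 0.149).

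**Figure D3:**
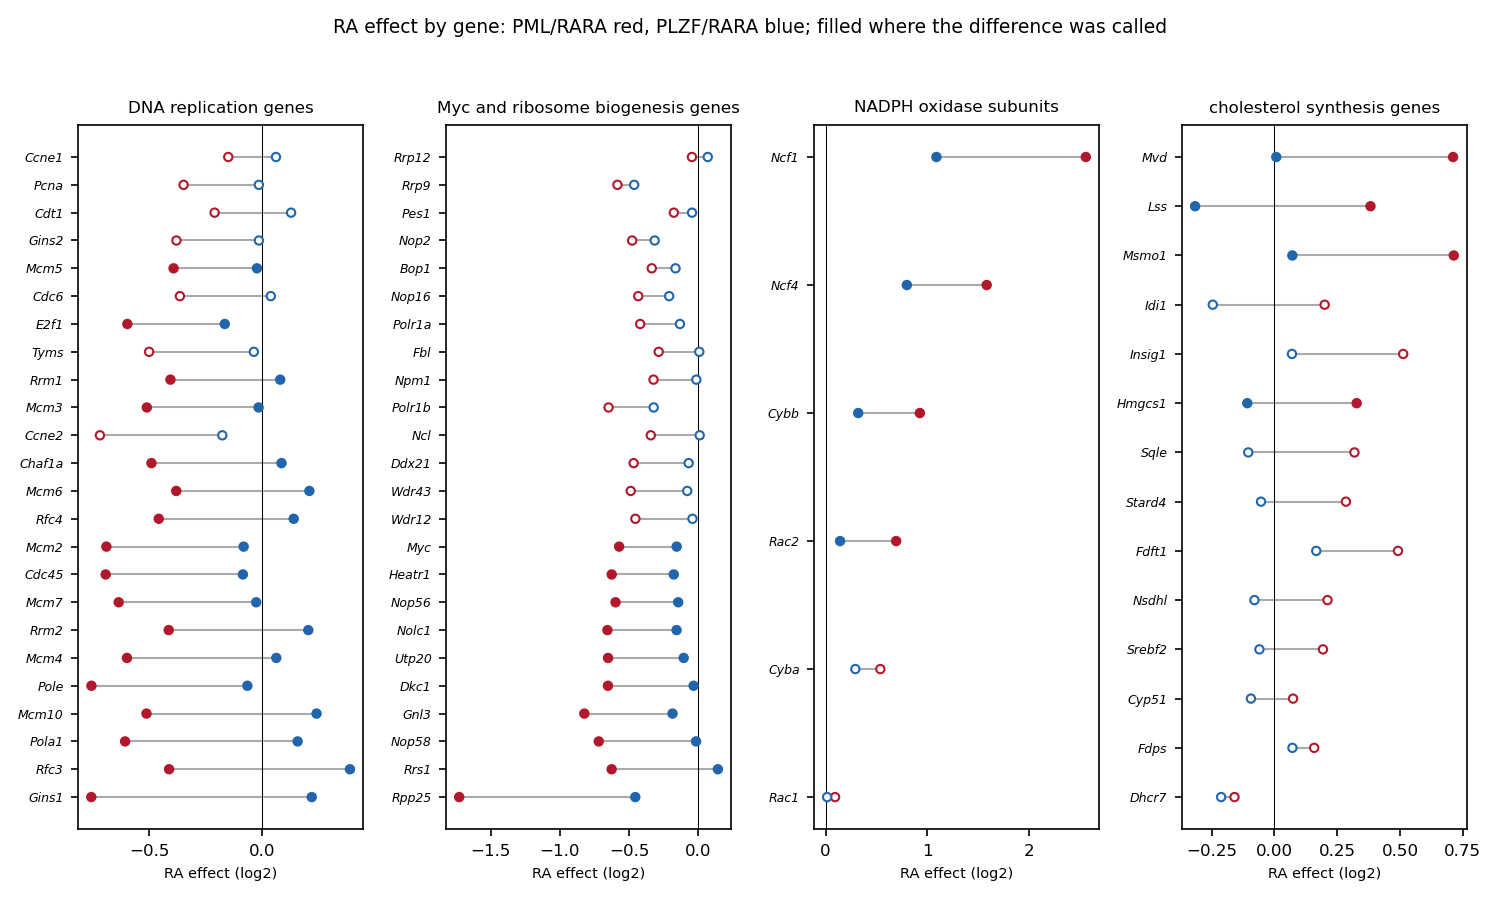
RA effect (log2) of every measured gene of 4 lists with PML/RARA (red) and PLZF/RARA (blue), ordered by the difference and filled where the difference was called. The red points of the first and second panels lie left of the blue ones for all 24 genes, and those of the other panels to the right.

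Kit, the stem cell factor receptor of immature myeloid cells, fell with PML/RARA, from 9.82 to 10.58 untreated to 8.42 to 9.34 at 6 h and from 10.29 to 10.65 to 8.70 to 9.50 at 12 h. On PLZF/RARA arrays it was at 10.68 and 10.72 untreated and at 10.43, 10.51, 10.74 and 10.36 with RA at 6 h. At 12 h the PLZF/RARA arrays were at 10.67 and 10.79 untreated and 10.50, 10.20, 10.49 and 10.47 with RA. At 6 h the PML/RARA groups were separate and the PLZF/RARA groups overlapped, and at 12 h both were separate. The effects were -1.29 ± 0.11 and -0.25 ± 0.16, with a difference of -1.04 ± 0.20 (adjusted p = 0.00065). In the list of 20 stem and progenitor genes, 8 fell and 1 rose with PML/RARA, and 5 fell and 1 rose with PLZF/RARA, against 15.6% and 2.34% of all genes that fell. The median RA effect of the list was 0.04 with PML/RARA and -0.05 with PLZF/RARA. Of single genes Bex6 fell by 2.30 ± 0.14 and 1.94 ± 0.19, Cd34 by 0.98 and 0.97, and Adgrg1 by 1.19 ± 0.08 and 0.67 ± 0.12. In that list 1 difference was positive (Angpt1) and 2 were negative (Kit and Adgrg1), or 15% called, against 7.42% of all genes. The Adgrg1 call was lost with additive time, with all 72 arrays and without untreated PLZF/RARA 6 h replicate 2 (adjusted p up to 0.274). Jag1, a Notch ligand, fell with PML/RARA from 7.39 to 7.99 to 6.18 to 6.66 at 6 h, while PLZF/RARA arrays were at 5.63 and 6.06 untreated and at 6.14, 6.34, 5.88 and 5.85 with RA. Untreated levels were separate by fusion, and treated levels were closer. The difference for Jag1 was -1.40 ± 0.16 (adjusted p = 5.2e-07). Lfng, which modifies Notch receptors, had the largest positive difference of the 17 Notch pathway genes (1.17 ± 0.17).

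RA moved 32 genes in opposite directions in the 2 leukaemias, by calls of both effects and of the difference, 15 of them up with PML/RARA and 17 down. Pecam1, an adhesion molecule of leukocytes and endothelium, was at 10.40 to 10.84 on the 8 untreated PML/RARA arrays and at 9.57 to 10.34 on the 16 treated ones. In PLZF/RARA leukaemias it went from 10.65 and 10.80 to 11.24, 11.38, 11.28 and 11.41 at 6 h, and from 10.73 and 10.63 to 11.28, 11.26, 11.40 and 11.32 at 12 h. From similar untreated levels the 2 leukaemias ended with no overlap. The difference was -1.15 ± 0.12 (adjusted p = 1.2e-07). Sting1, the adaptor of cytosolic DNA sensing, did the reverse. It went from 9.59, 9.45, 9.69 and 9.45 to between 9.72 and 10.13 with PML/RARA, and from 11.13 and 10.83 to 10.01, 10.31, 9.87 and 10.60 with PLZF/RARA, at 6 h. Its effects were 0.44 ± 0.09 and -0.62 ± 0.12. Other genes of this class were F2rl2, a protease-activated receptor (0.36 and -1.13), Ly96, the Toll-like receptor 4 co-receptor (0.55 and -0.51), Vamp5 (0.30 and -0.69) and the meiotic recombinase Dmc1 (-0.36 and 0.57). Ccdc180 was also called, but of its 27 probe sets only 2 were, and it was not called when they were averaged.

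For 165 genes the difference and the PLZF/RARA effect were called and the PML/RARA effect was not, 113 with a positive difference. Besides Stra8, Fmnl2, a formin that builds actin filaments, rose with PLZF/RARA, from 7.62 and 7.69 to 9.07, 8.68, 8.29 and 8.97 at 6 h and from 7.97 and 7.18 to 9.60, 9.74, 9.42 and 9.60 at 12 h. The PML/RARA arrays were at 6.68 to 7.18 untreated and 6.90 to 7.80 with RA at 6 h. Treated PLZF/RARA arrays lay above all other arrays. The Fmnl2 difference was -1.37 ± 0.17 (adjusted p = 3.2e-06). Genes that fell with PLZF/RARA alone included Mei4, a meiotic recombination gene (effects 0.04 ± 0.08 and -1.34 ± 0.11), Htr1b, a serotonin receptor (0.02 and -1.14), Scin, an actin severing protein (-0.05 and -1.47), Angpt1, a Tie2 ligand (0.10 and -1.16), and the transcription regulator Tox (-0.01 and -1.15). Each began higher with PLZF/RARA: the untreated difference, PML/RARA minus PLZF/RARA, was between -1.44 and -2.88 for the 5. Mei4 was at 4.69 to 5.23 on untreated PML/RARA arrays and at 7.63, 7.08, 6.94 and 7.19 on the untreated PLZF/RARA arrays, and the treated PLZF/RARA arrays read 5.40 to 6.17. Its untreated PML/RARA levels lay below every array median (6.56 to 6.81). Mei4 and Scin were in the lowest 30% of signal, where a fall with PML/RARA could be missed. Socs1, a feedback inhibitor of cytokine signalling, fell with PLZF/RARA (-0.77 ± 0.10; 0.08 ± 0.07 with PML/RARA). The survival kinase gene Pim2 fell with both, by 0.72 ± 0.07 and 1.56 ± 0.10, while Pim1 rose with PML/RARA (1.39 ± 0.11; 0.32 ± 0.15 with PLZF/RARA).

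Among 25 p53 targets, 6 differences were called and all 6 were positive: Sesn2 (0.95 ± 0.16), Pml, Btg2 (0.63), Phlda3 (0.50 ± 0.11), Sesn1 (0.43) and Mdm2 (0.39 ± 0.09, adjusted p = 0.0044). The list's called share was 24%, against 7.42% of all genes, and its median difference was 0.11. The Btg2 call was lost within batch 1, with all 72 arrays and without any of 4 untreated arrays (PML/RARA 6 h replicate 4, PLZF/RARA 6 h replicates 1 and 2 and 12 h replicate 2), and the Sesn1 call within batch 1, without the batch term, with all 72 arrays and without any of 13 arrays (7 PML/RARA, 6 PLZF/RARA). Phlda3, a repressor of Akt, fell with both fusions and more with PLZF/RARA (-0.21 and -0.71), so its positive difference was a smaller fall. Mdm2, the ubiquitin ligase of p53, rose with PML/RARA (0.41 ± 0.05), with an effect of 0.01 ± 0.07 with PLZF/RARA. Cdkn1c, a cell cycle inhibitor, rose with PML/RARA alone (0.87 ± 0.09; 0.02 ± 0.12), with a difference of 0.84 ± 0.15, while Cdkn2d rose with both (1.09 and 0.86). Of 22 apoptosis and survival genes, 2 had a positive and 1 a negative called difference, or 13.6%, against 7.42% of all genes. The list's median difference was 0.07. Bcl2l11, which encodes the death protein Bim, had the negative difference (-0.71 ± 0.20, adjusted p = 0.024). Its call was lost within batch 1 and without either of 2 untreated PLZF/RARA arrays (6 h replicate 2, 12 h replicate 2). Bcl2 fell equally by its means (-0.53 ± 0.07 and -0.51 ± 0.09), with an interval of the difference from -0.26 to 0.21.

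Genes of cholesterol synthesis had 4 positive and no negative calls among 14 (28.6%, against 7.42% of all genes), and a median difference of 0.38. The 4 were Mvd (0.70 ± 0.14), Lss (0.70 ± 0.10), Msmo1 (0.64 ± 0.14) and Hmgcs1 (0.44). With all 72 arrays the count was 2, with Msmo1 (adjusted p = 0.066) and Hmgcs1 among the losses, and Hmgcs1 was also lost within batch 1 and without untreated PLZF/RARA 6 h replicates 1 or 2 or 12 h replicate 1. RA raised 10 of the 14 with PML/RARA and none with PLZF/RARA, where 1, Lss, fell. Over all genes 11.8% and 3.76% rose, and the median effects of the 14 were 0.30 and -0.07. Lss, the lanosterol synthase gene, was at 7.48 to 7.79 untreated and 7.70 to 8.03 with RA with PML/RARA at 6 h, and at 7.96 to 8.32 at 12 h. With PLZF/RARA it was at 8.74 and 8.76 untreated and 8.42, 8.57, 8.04 and 8.31 with RA at 6 h. The 2 leukaemias moved toward each other, and the PLZF/RARA levels stayed higher at 6 h. Of 24 interferon response genes, 1 had a positive (Oasl1) and 1 a negative (Ifit2) called difference, and 14 rose with PML/RARA and 8 with PLZF/RARA. The Oasl1 call was lost within batch 1, with all 72 arrays and without any of 7 single arrays (untreated PML/RARA 6 h replicate 3 and 12 h replicate 4, all 4 untreated PLZF/RARA arrays and RA 12 h replicate 1; adjusted p up to 0.092). The list's median effects were 0.45 and 0.60, each averaged over 6 h and 12 h. With PLZF/RARA its mean log2 level averaged 7.14 untreated and 7.07 with RA at 6 h, and 6.86 and 8.04 at 12 h. The untreated 6 h arrays read 6.79 and 7.48, and the 12 h RA arrays ran from 7.26 to 8.69. With PML/RARA the averages were 8.63 untreated and 8.92 with RA at 6 h, and 8.56 and 9.18 at 12 h. Untreated levels were higher with PML/RARA, where the lowest untreated array read 8.32. The median difference of this list was 0.34 at 6 h and -0.43 at 12 h, and between -0.21 and 0.08 over single arrays left out. Genes of the integrated stress response had 2 positive calls among 18 (Sesn2 and Ddit3), and immediate early genes 2 among 21 (Klf2, 0.86 ± 0.12, and Dusp6, 0.84 ± 0.17). The called shares of the interferon, stress response and immediate early lists were 8.33%, 11.1% and 9.52%, against 7.42% of all genes. These shares are near that of all genes and are not read as results about the lists. Of the lists not yet described, adhesion genes had 4 positive and 2 negative calls among 22, and inhibitors of signalling with cytokine receptors 4 and 2 among 19. The latter were 1 and 1 within batch 1, and the positive ones 1 to 5 when single arrays were left out, with 1 without untreated PLZF/RARA 6 h replicate 1. Interleukin 1 and Toll-like receptor genes had 3 and 1 among 22 (1 and 0 with all 72 arrays, 1 positive without untreated PLZF/RARA 6 h replicate 2), senescence genes and CDK inhibitors 1 and 2 among 12, lysosome genes 2 and 0 among 18, and primary granule genes 1 and 1 among 11. In the order given from adhesion genes on, the called shares were 27.3%, 31.6%, 18.2%, 25%, 11.1% and 18.2%, against 7.42% of all genes. Primary granule genes had no call within batch 1, with additive time or with all 72 arrays. Senescence genes had 1 and 1 within batch 1, with additive time and after another quantile normalization.

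**Figure D4:**
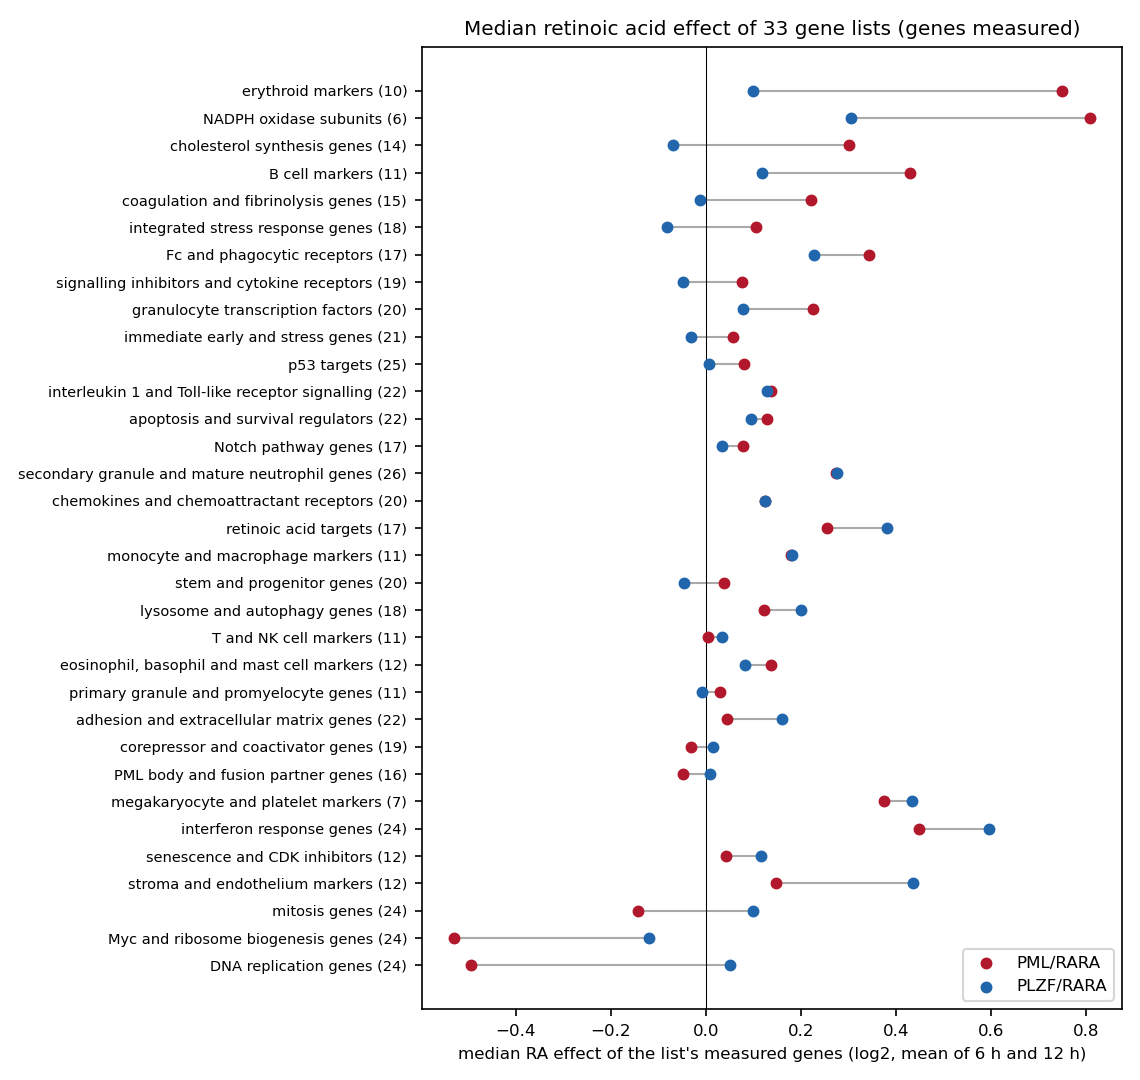
Median RA effect (log2) of the measured genes of 33 lists with PML/RARA (red) and PLZF/RARA (blue), ordered by the median difference, with the number of genes in parentheses. DNA replication and Myc lists lie lowest, with red medians of -0.50 and -0.53 against blue medians of 0.05 and -0.12.

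Markers of other marrow cells were read on the same arrays, because in whole marrow fewer cells of a type and less RNA per cell cannot be told apart. Erythroid markers had no called difference among 10 and a median difference of 0.67. With PML/RARA 9 of the 10 rose with RA, and with PLZF/RARA none was called (median effects 0.75 and 0.10). Their mean log2 level ran on PML/RARA arrays from 7.41 to 9.06 untreated and 8.19 to 10.06 with RA at 6 h, and from 7.68 to 8.58 and 7.89 to 9.70 at 12 h. All 12 PLZF/RARA arrays lay between 6.01 and 6.60, below every PML/RARA array. B cell markers had no called difference among 11, a median of 0.31, and 8 rises with PML/RARA. The median was 0.10 without untreated PML/RARA 6 h replicate 4 and 0.14 with array weights. The mean level of these markers ran from 6.27 to 7.43 untreated and 6.61 to 8.32 with RA with PML/RARA, and from 6.05 to 6.72 and 6.13 to 6.79 with PLZF/RARA. Stroma and endothelium markers had a median of -0.15 and 4 rises with each fusion of 12, T and NK cell markers 1 negative call (Gzma) of 11, and monocyte and macrophage markers 1 positive call (Cd14) of 11. A single call of 11 is 9.09%, near the 7.42% of all genes. The Gzma call was lost without untreated PLZF/RARA 6 h replicate 2 or 12 h replicate 1 (adjusted p up to 0.134), and the Cd14 call without untreated PLZF/RARA 12 h replicate 1 and with all 72 arrays (up to 0.0652). The mean levels of stroma, T and NK cell, and monocyte markers were 7.44 to 8.55, 6.59 to 6.93 and 8.26 to 9.08 with PML/RARA, and 6.92 to 8.09, 5.75 to 6.30 and 8.28 to 8.66 with PLZF/RARA. Megakaryocyte (7 genes) and eosinophil, basophil and mast cell markers (12 genes) had no called difference. The part of these cells in the gene differences was not tested.

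By class, 1097 of the 1480 calls (74.1%) had a called effect with PML/RARA alone, 402 of them with a positive and 695 with a negative difference. The PLZF/RARA effect rests on fewer arrays, so smaller effects there can miss the call and fall into this class. By sign, the PLZF/RARA effect ran the same way for 275 genes that fell and 228 that rose with PML/RARA. For 420 and 174 it ran the other way. Both effects were called in 1 direction for 137 genes, and the larger one was that of PML/RARA in 120. In that class the median rise was 1.15 with PML/RARA and 0.54 with PLZF/RARA for the 110 rising genes. For 49 genes neither effect was called. The starting levels differed for many of the calls. Of the 301 positive calls of at least 1.5-fold, the untreated level was lower with PML/RARA in 157 and higher in 25, and for 119 it was not called. Of the 255 negative ones it was higher with PML/RARA in 118 and lower in 29, and for 108 it was not called. The untreated arrays enter both quantities with opposite sign, so their spread alone pushes these counts this way, and no test was made on them. Genes with a called difference whose untreated levels were not called include F3 (untreated difference -0.29, adjusted p = 0.7), Nr4a1 (0.10, adjusted p = 0.8), Fcgr4 (0.18, adjusted p = 0.6), Stra8 (-0.20, adjusted p = 0.5) and Pecam1 (-0.14, adjusted p = 0.4).

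A similar response was defined as effects called in both leukaemias in 1 direction with the 95% interval of the difference inside 1.5-fold either way. Of 816 genes called in both in 1 direction, 568 met this, 366 rising and 202 falling. The members named by the smaller of the 2 statistics were all rising. Adgre5, the adhesion receptor CD97, rose by 1.81 ± 0.09 and 1.56 ± 0.13, with an interval of the difference from -0.07 to 0.56. Rilpl2 rose by 1.62 ± 0.10 and 1.54 ± 0.13 (-0.25 to 0.41), Phyh, a peroxisomal hydroxylase, by 1.44 ± 0.07 and 1.23 ± 0.10 (-0.04 to 0.47), and Irf1, an interferon regulatory factor, by 1.52 ± 0.11 and 1.40 ± 0.15 (-0.24 to 0.50). Tubb6, a beta tubulin, was at 7.33 to 7.66 untreated and 8.60 to 10.04 with RA with PML/RARA at 6 h, and at 7.56 on both untreated arrays and 9.95, 9.16, 9.66 and 9.32 with RA with PLZF/RARA. Treated and untreated Tubb6 levels were separate in both leukaemias, and treated levels overlapped between them. Its interval was -0.55 to 0.36. Prkcd (0.73 and 0.67), a protein kinase C, Tgfbr2 (0.68 and 0.87), a TGF beta receptor, Nin (0.88 and 0.67), Arid3a (1.03 and 0.85) and Dgat1 (1.12 and 1.27), a triglyceride synthesis enzyme, completed the set.

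**Figure D5:**
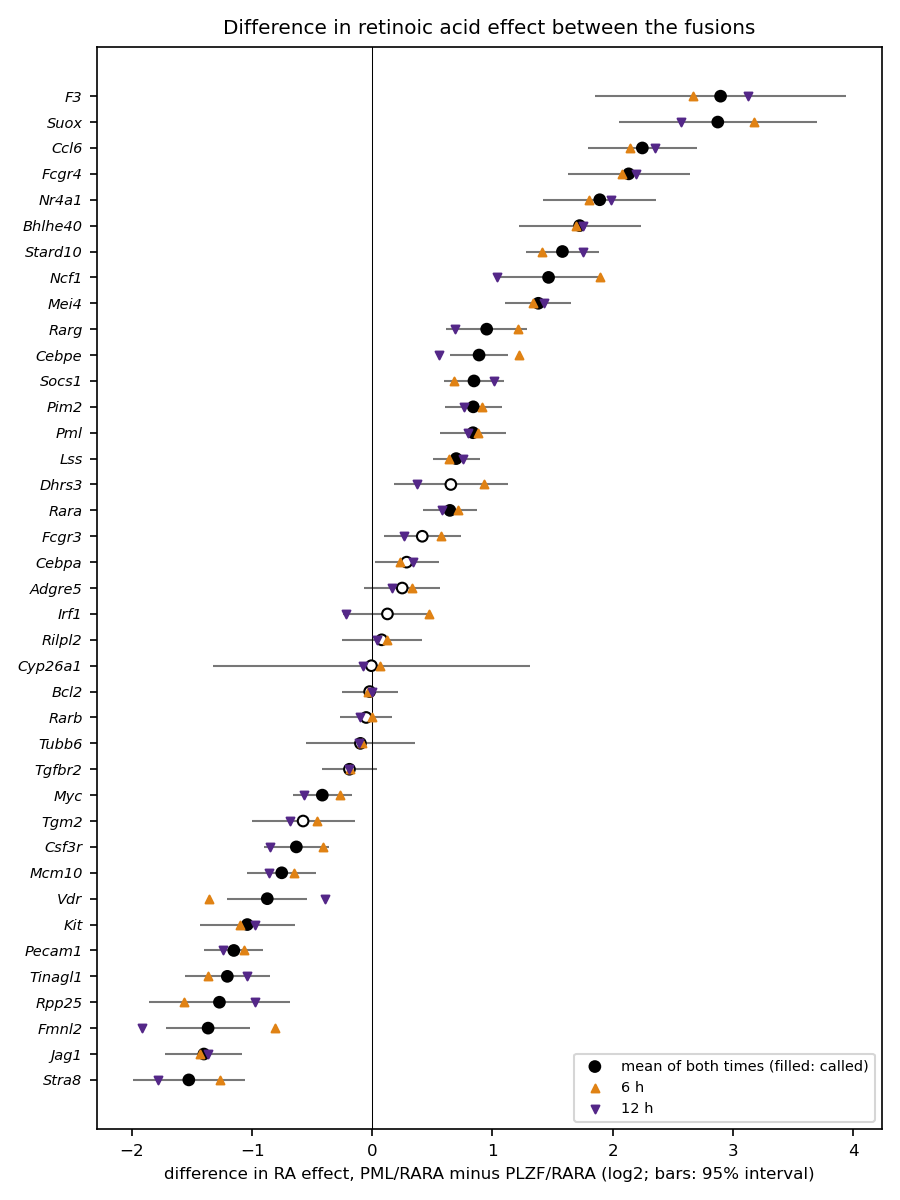
Difference in RA effect (log2, PML/RARA minus PLZF/RARA) of 39 named genes as the mean of both times with its 95% interval (circles, filled where called), at 6 h (upward triangles) and at 12 h (downward triangles). F3 is highest at 2.90 and Stra8 lowest at -1.53; Cyp26a1, Rarb and Bcl2 lie near 0 and differ in the width of their intervals.

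The difference was also taken at each time. At 6 h 302 genes were called (180 positive), and at 12 h 585 (355 positive). No gene passed for the change of the difference from 6 h to 12 h (limma, lowest adjusted p = 0.082), with 1319 genes at an unadjusted p below 0.05. When all 72 arrays entered 1 fit, 1 gene passed, and without single PLZF/RARA arrays 12 (RA 6 h replicate 2) or 5 (untreated 12 h replicate 2; RA 12 h replicate 1) did. The values of single genes at the 2 times were: Cebpe had 1.22 at 6 h and 0.56 at 12 h, Vdr -1.36 and -0.39, Ncf1 1.89 and 1.04, Fmnl2 -0.81 and -1.92, and F13a1 -0.36 and -1.95. The 6 h count rests on few untreated PLZF/RARA arrays: it was 72 and 76 without replicate 1 or 2 of that group, and 119 within batch 1. Without RA replicates 1, 2 or 4 of PLZF/RARA it was 197, 673 or 633, and without untreated replicates 2 or 4 of PML/RARA 178 or 129. The 12 h count was 200 without untreated replicate 2 of PLZF/RARA, 389 and 377 without its RA replicates 1 and 3, and 383 without untreated replicate 2 of PML/RARA. The split of the 6 h calls moved from 59.6% positive to 70.1% after another quantile normalization and 71.2% after median centring, and that of the 12 h calls from 60.7% to 50.1% after quantile normalization.

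A list of PML/RARA response genes that these 36 arrays did not choose came from the other model of the study, viral transduction of PML/RARA into Pml wild type cells, which shares no array and no batch with them. There, RA raised 476 genes and lowered 443 by at least 1.5-fold (adjusted p below 0.05, mean of 6 h and 12 h). The fit also held the Pml null arrays of that model, which enter its estimate of spread and its batch term. Of the 476 rising genes, 189 (39.7%) had a positive and 10 a negative called difference between the transgenic fusions, against 3.35% and 4.07% of all genes. Their median RA effect was 0.70 with PML/RARA and 0.36 with PLZF/RARA, and 397 rose with PML/RARA and 215 with PLZF/RARA. Of the 443 falling genes, 103 (23.3%) had a negative and 17 a positive difference, with median effects of -0.46 and -0.19. The falling count of 103 was 49 when all 72 arrays entered 1 fit and 55 to 124 when single arrays were left out. It was 64, 66 and 55 without untreated PLZF/RARA 6 h replicates 1 and 2 and 12 h replicate 2. The list was chosen on PML/RARA leukaemias, so it says nothing of genes that respond to RA with PLZF/RARA alone. Choosing genes by a response with PML/RARA also favours differences in the direction of that response. All genes include many that RA did not move detectably with either fusion. An excess over the shares of all genes was therefore partly set by the choice, and it is given as a description only.

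Among the viral-chosen genes of largest effect, Suox, Ccrl2 and Hic1 had positive differences (2.87, 1.74 and 1.52), Cyp26a1 and Ocm had none that was called (-0.01 ± 0.65 and 0.16 ± 0.43), and Vdr had a negative one. Vdr rose by 2.95 ± 0.29 in the viral PML/RARA leukaemias, while its effect was 0.02 ± 0.10 in the transgenic PML/RARA and 0.90 ± 0.13 in the transgenic PLZF/RARA leukaemias. Of the falling genes, Bex6 and St8sia4 fell with both transgenic fusions (St8sia4 by 1.48 ± 0.10 and 1.01 ± 0.14), and Clec4n, which fell by 1.95 in the viral leukaemias, had effects of -0.07 ± 0.11 and -0.08 ± 0.16.

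Promoter windows were then read for the genes that differed and those that did not. Of the 301 positive calls of at least 1.5-fold, 226 had a window (303 windows), of the 255 negative ones 195 (234 windows), of the 568 similar genes 462 (615 windows), and over all genes 15614 had 19177. A DR5 match was found in no window of the positive or the negative calls, in 1 of the similar genes (Rarb), and in 11 windows, or 0.0574%, of all. Cyp26a1, with its wide interval, is in none of the 3 sets. A DR2 match was found in 1 window of the positive calls (Slc7a7) and 1 of the negative (Tinagl1), against 15 windows (0.0782%) of all, and a DR1 match in 1 window of the similar genes (Asah2), against 39 (0.203%). Both half-sites were searched on both strands. The STAT site TTCNNNGAA was found in 7.26% of the windows of positive calls, 8.12% of negative calls, 7.8% of similar genes and 7.66% of all. The core of the interferon-stimulated response element, GAAANNGAAA, was found in 4.62%, 3.85%, 3.41% and 3.27%, and the E-box CACGTG, on which Myc and Bhlhe40 are known to bind, in 9.24%, 8.97%, 7.8% and 8.24%. A pair of directly adjoining p53 half-sites was found in 1 window of all and in none of the 3 sets. Pairs with a spacer between the half-sites were not searched, so p53 sites of that kind would be missed. A match is a description of letters in these windows, which leave out more distant elements.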

How the data were processed

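RNA was hybridised to Affymetrix Mouse Gene 1.0 ST arrays. The deposited values are log2 levels per probe set, and RMA and affy are named in the submitters' processing notes, without versions. RMA makes levels relative across arrays, so an equal shift of all genes is not visible. The 36 arrays had no missing values and no identical pairs. Probe sets were named through the platform annotation, and each of 19938 genes took its 1 probe set of highest mean level. Genes were fitted with limma 3.58.1 (R 4.3.3), with 1 term for each of the 8 groups and batch as an additive term. Differences were tested with moderated statistics and Benjamini-Hochberg adjustment over all genes at 0.05, and 1.5-fold is 0.585 on the log2 scale. SE is the standard error of a fitted effect. The script was also run on simulated data, with differences added to the treated PML/RARA arrays and no other group differences. No result rests on that run.

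The members and the 33 lists were chosen with earlier results of these data known. Named were the 15 largest positive and negative differences, up to 3 members of a list by moderated statistic and a panel of key genes. Also named were 8 genes each of the opposite and PLZF/RARA-alone classes, 10 similar genes and 6 rising and 6 falling viral-chosen genes. Unnamed clones and multigene families were left out, and the text gives those its comparisons turn on. Other list members named were chosen after their values were seen. A motif was searched in RefSeq promoter windows (GRCm38.p6). Alternatives were no batch term, batch 1 only, another quantile normalization, median centring, array weights, a trended robust variance, leaving out the lowest 30% of signal, averaging probe sets, additive time, all 72 arrays, and leaving out each array.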

Additional observations from a re-analysis of the deposited data

Results flagged for a closer look

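The RA effect differed between the fusions for 1480 genes by the interaction test. Outside the 19938 named genes, 123 of 12146 probe sets without a listed gene (66 positive, 57 negative) and 30 of 1621 probe sets with several genes (19 positive, 11 negative) also had a called difference.

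Single arrays stood apart from their group in 14 of 252 groups of a gene or marker list (35 genes and 7 marker lists in 6 groups), and chance alone sets apart about 1 group in 20. With PML/RARA untreated, Bhlhe40 read 7.41 on 12 h replicate 1 (the others 6.67 to 6.79), Zbtb16 9.56 on 6 h replicate 2 (9.08 to 9.13), Cebpa 8.89 on 6 h replicate 1 (9.17 to 9.22) and Fcgr4 6.45 on 12 h replicate 4 (6.77 to 6.83). With PML/RARA and RA, Ccl6 read 10.22 on 6 h replicate 3 (10.94 to 11.45), Mdm2 9.57 on 6 h replicate 4 (9.77 to 9.90) and Pecam1 9.57 on 12 h replicate 6 (9.92 to 10.19). With PLZF/RARA and RA, Bhlhe40 read 9.39 on 12 h replicate 4 (9.06 to 9.10), Kit 10.20 on 12 h replicate 2 (10.47 to 10.50) and Cdkn1c 6.85 on 6 h replicate 1 (6.57 to 6.58). Among marker lists, the mean log2 level of erythroid markers was 8.58 on untreated PML/RARA 12 h replicate 3 (7.68 to 7.74), and that of T and NK cell markers 6.30 on PLZF/RARA RA 12 h replicate 2 (6.04 to 6.08). PML/RARA RA 12 h replicate 4 was highest for monocyte and macrophage markers, at 9.08 (8.73 to 8.81), and for stroma and endothelium markers, at 8.55 (7.87 to 8.13).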

How the results depend on the processing

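The count of 1480 ran from 1012 to 1722 over the alternatives and from 766 to 1999 when single arrays were left out. The 6 h count of 302 was 119 within batch 1, 489 with array weights and 164 with all 72 arrays, and ran from 72 to 673 without single arrays. The 12 h count ran from 200 to 774, the PML/RARA effect from 4689 to 5704 and the PLZF/RARA effect from 687 to 1377 without single arrays. The change from 6 h to 12 h had 1 call with all 72 arrays and 0 to 12 without single arrays. Viral-chosen falling genes with a negative difference numbered 49 with all 72 arrays and 55 to 124 without single arrays, and rising ones with a positive difference 143 to 201. The share of rises among PLZF/RARA calls went from 61.6% to 52.9% after quantile normalization and 49.6% after median centring. The causes were not tested. Of 104 named genes with a called difference, 74 kept the call in all 46 settings, and 4 more (Mei4, Nr1h5, Scin and Stra8) in the 45 that gave them a value, since leaving out the lowest 30% of signal removed them. None reversed. Within batch 1, 91 kept it. No paired analysis was possible because the titles give every array the same replicate number, 1.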
